A study of Homo sapiens with 11 samples.

Results

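The cytosolic ribosomal protein genes were followed in HEK293T, an established cell line of human embryonic kidney origin with the SV40 large T antigen, across 4 treatment groups. Members were the symbols of the count table that begin with RPL or RPS and carry the number or letter endings of the cytosolic family, with a mean of at least 10 counts over the 11 libraries. Of the 27671 genes in the table, 83 symbols fitted and 81 reached that minimum, 48 of the large subunit and 33 of the small subunit. RPL10L and RPL3L, related copies known mainly from testis and muscle, fell under it with means of 0.364 and 2.55 counts. All 81 members passed the edgeR filter on low counts and were among the 15591 genes tested. The rule takes in related copies such as RPS27L, RPL36AL and RPL39L and leaves out FAU and GNB2L1, whose proteins also sit on the ribosome.

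The cells received DMSO as vehicle (3 libraries), DMSO and ISRIB (2), A8 at 10 µM (3) or A8 at 10 µM and ISRIB (3). A8 is a compound known here by its code name, which the series' title places under RIG-I, a sensor of foreign RNA, and the integrated stress response. ISRIB is a small molecule that keeps the guanine nucleotide exchange factor eIF2B active when eIF2 is phosphorylated, and its dose is not in the labels. Sample labels give a time of 8 h and the treatment protocol 4 h, so the time is uncertain. The series' text calls the replicates biological. Replicate 2 of the ISRIB group was left out by the submitters for poor quality, and the 2 remaining columns, called a and b, could be tied to the group but not to a numbered sample. Polyadenylated RNA was sequenced to between 34072107 and 35318111 counts per library, with 17892 to 18017 genes detected. NEFM, NEFL and GATA3, known in this line, had at least 1162 counts in every library and PAX2 34 to 75, while PTPRC, CD3E, HBB and KRT5 had 0 counts in all 11.

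Ribosomal proteins join ribosomal RNA to build the small subunit, which reads the mRNA, and the large subunit, which joins amino acids. Each protein is needed in about equal number, and surplus protein is degraded. Their mRNAs start with a run of pyrimidines, the terminal oligopyrimidine (TOP) motif, through which mTORC1 and LARP1 regulate their translation and storage. In the integrated stress response, phosphorylated eIF2 lowers the initiation of translation in general. Control of ribosomal protein output is known to act largely on translation, which a measurement of RNA levels does not read.

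The starts of the genes were read from RefSeq (GRCh38.p14), a newer build than the GRCh37 of the deposited files. Of the 81 members, 64 had an entry. A gene with several listed starts was counted if any of them held the feature. A C followed by 4 bases of C or T from the first base on stood in 46 of these 64 members (71.9%). Of all 27305 genes in the same table, 5.14% held it. A stretch of 6 or more C or T was found in 57 members (89.1%) and in 35.8% of all genes. Such a stretch had to reach into the window of 10 bases to each side of the start, and could extend beyond it. The shares were alike in both subunits, with 28 of 39 large and 18 of 25 small subunit members holding the C followed by 4 pyrimidines. In the 250 bases before and 50 after the start, CCGGAAG, letters bound by ETS factors, stood on either strand in 35.9% of members and 12.2% of all genes, and TATAAA, the TATA box, in 7.81% and 13.99%. The starts of 4 members are shown, chosen from these same data. Candidates were the 3 highest and 3 lowest fold changes of each subunit with A8 against vehicle, where RefSeq gave a single start. The 4 with the smallest edgeR p-values were taken. They differ in where the pyrimidines lie. The first 30 bases are printed 5′ to 3′ from the RefSeq start, with the longest stretch of C or T in capitals.
RPL13A, chr19:49487608-49487637, plus strand: CTTTTCCaagcggctgccgaagatggcgga
RPL21, chr13:27251558-27251587, plus strand: CCTTTCggccggaaccgccatcttccaggt
RPS26, chr12:56041918-56041947, plus strand: gaTTTTCTTCCgccatccggctaaatagtc
RPL27, chr17:42998419-42998448, plus strand: agcggaagtgTCCTTCTTTCCTTTTTgctg
RPL13A and RPL21 open with their stretch at base 1. The stretch of RPS26 begins at base 3, and that of RPL27 at base 11 and runs for 16 bases. The start in the table need not be the one used in these cells.

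Levels differed widely between members, although the proteins are used in about equal number. On the CPM scale (counts divided by a common library total, scaled by TMM), member means over the 11 libraries ran from 2.15 for RPS28 to 4269.7 for RPS2, with a median of 605. Per kb of coding length, the median of the 80 members with a length was 1204 CPM. This length leaves out the untranslated parts of the transcript, so levels per kb compare genes only roughly. In RPL22, for example, the coding length was 387 bases and the transcript length 2078. The highest levels per kb were those of RPS2 (4841), RPL28 (4749), RPL18 (4721) and RPS4X (4585). RPS2 lines the channel where mRNA enters the small subunit, and RPS4X is the X-linked copy of an early-assembling small subunit protein. The lowest were RPS28 (10.2), RPL39L (26.1), RPL21 (44.0) and RPS27 (53.6). Only 34 of the 80 members lay within 2-fold of the median, and 9 lay under 0.1 of it. The 10 members with the highest counts held 38.3% of all member counts.

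Levels per kb were lower in members with many processed copies, the intronless copies of mRNAs scattered over the genome. The number of copies came from the reference annotation, in which RPL23A had 91, RPSA 74 and RPL21 66. The 29 members with 15 or more copies had a median level of 396 CPM per kb, against 1775 in the 29 members with 0 to 4 copies and 1578 in the 22 members in between. Across the 80 members, Spearman's rho between copies and level was -0.30, and rho between the GC content of the transcript and level was 0.41. Genes are not independent replicates, and all values share the same 11 libraries and one way of counting. No row of the count table bears the name of a processed copy of a member. How reads that match several places were counted is not given in the sources used here, and its part in these levels was not tested. Copy number does not order all members. RPS28 had 3 copies and RPL39L and RPS27L had 0, with levels of 10.2, 26.1 and 78.6, while RPS2 and RPS4X, with 20 and 23 copies, were among the highest 4.

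**Figure D1:**
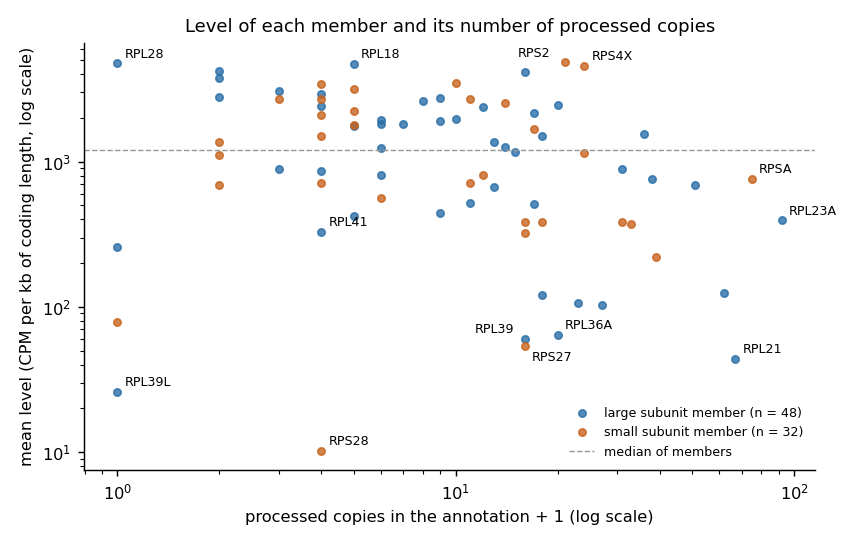
Mean level of 80 ribosomal protein genes over the 11 libraries (CPM per kb of coding length, log scale) against the number of processed copies in the annotation plus 1 (log scale), large subunit in blue and small subunit in orange, with the median of 1204 as a dashed line. Members with many copies include most of the low levels, while RPS28, RPL39L and RPS27L are low with 3 copies or fewer.

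As a group, the members took shares of all counts whose means differed between the 4 treatments by less than the spread of the libraries. In vehicle cells they held 7.23%, 6.88% and 5.84% of all counts, a mean of 6.65% ± 0.72 (SD, n = 3). With A8 they held 7.004%, 6.51% and 6.58% (6.70% ± 0.27, n = 3), all inside the vehicle range. With ISRIB the libraries gave 6.50% and 6.77% (6.63% ± 0.19, n = 2), and with A8 and ISRIB 6.23%, 6.65% and 7.04% (6.64% ± 0.41, n = 3), again inside it. The largest distance between group means, 6.63% against 6.70%, was smaller than the SD of every group. Large subunit members held 3.32% to 4.07% and small subunit members 2.52% to 3.15% of counts over the 11 libraries. Their ratio stayed between 1.27 and 1.32 in every library, so that both subunits were high or low together. In bulk RNA, fewer cells and less RNA per cell cannot be told apart, and a share does not read the amount of RNA in a cell.

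**Figure D2:**
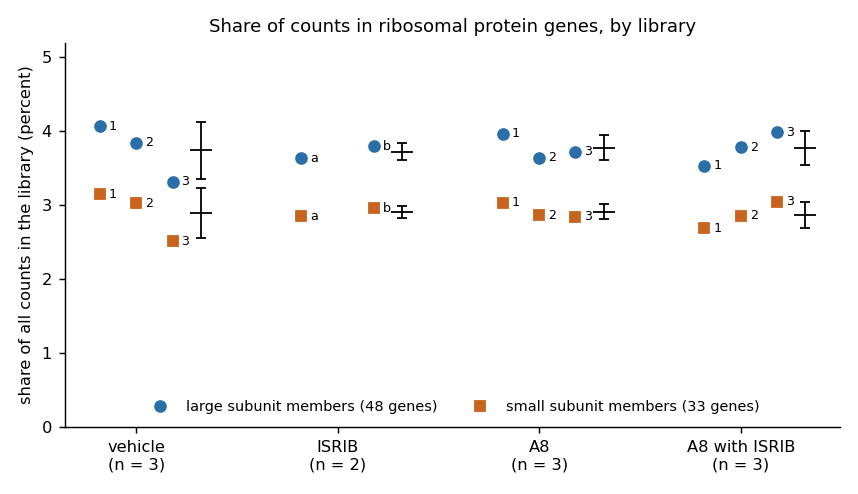
Share of all counts (percent) in the 48 large (blue circles) and 33 small (orange squares) subunit genes in each library of the 4 groups, with replicate names beside the points and the group mean ± SD in black. All libraries with A8, ISRIB or both lie between the lowest and the highest vehicle library in both subunits.

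Transcripts encoded in the mitochondrial genome, which are part of the same totals, held 9.66% ± 1.39 of counts in vehicle cells and 11.8% ± 1.04 with A8 (n = 3 each). With these transcripts left out of the totals, a choice made after seeing the data, the members' share was 7.35% in vehicle, 7.41% with ISRIB, 7.60% with A8 and 7.55% with A8 and ISRIB. The largest distance between these group means stayed under the SD in vehicle (0.72), with A8 (0.27) and with A8 and ISRIB (0.41). It exceeded the SD with ISRIB (0.19, n = 2). These SDs are those of the share of all counts.

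In the vehicle group and with A8 and ISRIB, replicates of one treatment lay further apart in ribosomal protein RNA than the means of the 4 treatments did. In vehicle library 1, 80 of the 81 members lay above their group mean, with a median deviation of 0.13 on the log2 scale. Vehicle library 2 had 68 members above (median 0.05), and vehicle library 3 had 0 (median -0.19). The same held with A8 and ISRIB, where library 1 had 0 members above the mean (-0.15), library 2 had 25 (-0.02) and library 3 had 80 (0.16). With A8 alone the 3 libraries had 73, 10 and 38 members above (0.08, -0.07 and -0.00), and with ISRIB alone 34 and 47. Over all tested genes the median deviation stayed between -0.00 and 0.01 in the 11 libraries, and the TMM scaling itself brings this median near 0. The members moved as a block, large and small subunit together, most clearly in libraries 1 and 3 of vehicle and A8 with ISRIB. With ISRIB alone and in A8 library 3, members lay on both sides of the mean with medians near 0.

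**Figure D3:**
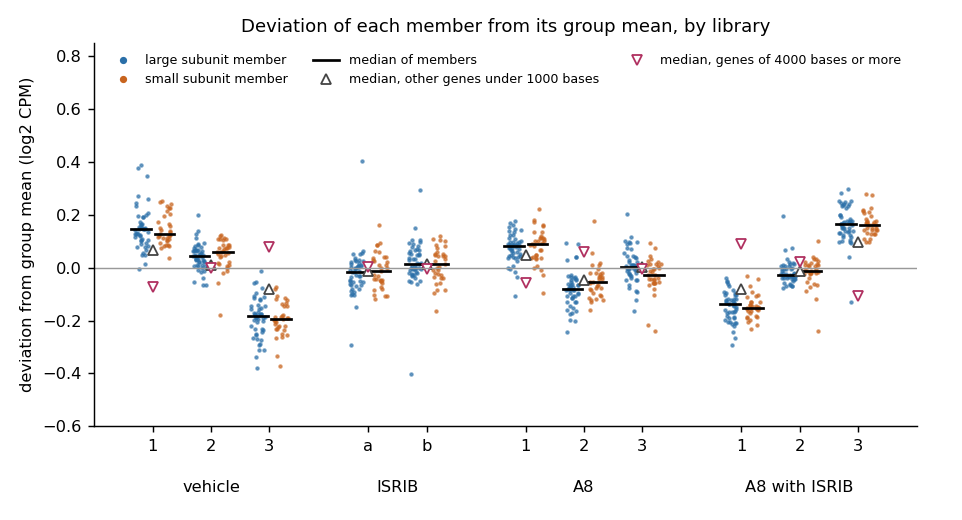
Deviation of each member from the mean of its group (log2 CPM) in each of the 11 libraries, large subunit in blue and small subunit in orange, with black bars for medians and triangles for the medians of other short and of long genes. Nearly all members lie above 0 in vehicle 1 and A8 with ISRIB 3, and none of the 81 does in vehicle 3 and A8 with ISRIB 1.

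The spread of members between replicates exceeded that of genes of like level. The median SD of log2 CPM in the vehicle group was 0.17 for large and 0.18 for small subunit members, against 0.08 for the 4468 tested genes of like level. With A8 and ISRIB it was 0.16 in both subunits against 0.09, with A8 alone 0.09 in both against 0.07, and with ISRIB alone 0.05 and 0.07 against 0.05. Subtracting each library's median deviation over the members removed 71.7% of the members' squared deviations within groups, and the sum fell in 79 of 81 members. Because the median was taken from these same members, part of this fall is built in. The same was not computed for another gene set. In RPL27 and in RPL4, a protein that lines the exit tunnel, the sum grew. Both deviated less than the median member where the block was widest. In vehicle library 3, RPL27 deviated by -0.01 and RPL4 by -0.06 where the median member deviated by -0.19.

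Genes outside the family moved with the block. The 1437 other tested genes with transcripts under 1000 bases had median deviations of 0.07 in vehicle 1, -0.08 in vehicle 3, -0.08 in A8 with ISRIB 1 and 0.10 in A8 with ISRIB 3. The 76 mitochondrial ribosomal protein genes, which encode the other ribosome of the cell, had 0.12, -0.13, -0.11 and 0.14 in the same libraries. The 2942 tested genes with transcripts of 4000 bases or more went the other way, with -0.07, 0.08, 0.09 and -0.11. The part of transcript length, or of any step of library preparation, in the members' deviations was not tested. The spread of the block bears on each comparison below, because a group mean of 3 libraries includes it.

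A8 against vehicle asks whether the compound alters ribosomal protein RNA. No member passed an adjusted p of 0.05 in edgeR's quasi-likelihood test (lowest 0.315), where 22 of all 15591 genes did (0.141%). DESeq2's Wald test called 0 members too (1.18% of all genes). In edgeR, 6 of 81 members had an unadjusted p under 0.05 (7.41%; 10.2% of all genes), 4 higher (4.90% of all genes) and 2 lower (5.34%). The median log2 fold change was 0.05 in the large and 0.02 in the small subunit, beside 0.01 for all genes. Of the 81 members, 54 had a log2 fold change above 0, against 51.8% of all genes. This lean was not there without vehicle library 3, when 21 of 81 were above 0 and the medians were -0.05 and -0.08, nor without A8 library 1, when 41 of 81 were above 0 against 51.9% of all genes.

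The precision allowed only small changes for most members. The 95% intervals of the log2 fold change with A8 lay within 1 unit of 0 in all 81 members and within 0.5 in 80 of them, with a median half-width of 0.20. The widest, 0.44, was that of RPS28, the member with the fewest counts.

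In 7 members the A8 libraries did not overlap the vehicle libraries, 6 higher (7.41%; 8.47% of all genes) and 1 lower (8.13% of all genes). RPL13A, which besides its place in the large subunit is known from a complex that silences inflammatory mRNAs, had 328, 299 and 279 CPM in vehicle and 389, 337 and 334 CPM with A8. All 3 A8 libraries lay above all 3 vehicle libraries. Its log2 fold change was 0.23 (SE 0.08, edgeR adjusted p 0.315). RPL21, mutated in an inherited hair loss, had 19.03, 19.97 and 18.39 CPM in vehicle and 22.2, 23.3 and 22.6 CPM with A8, again without overlap. Its fold change on the log2 scale was 0.25 (SE 0.11), with an adjusted p of 0.473 in edgeR. RPL6, a large subunit protein, had 569, 556 and 520.4 CPM in vehicle and 611, 583 and 662 CPM with A8, where the lowest A8 library lay just above the highest vehicle library (0.17, SE 0.07). RPL4, RPL10A and RPL14 were the other 3 of the 6, with log2 fold changes of 0.12, 0.13 and 0.14.

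RPL27, a structural protein of the large subunit, was the member without overlap on the lower side. It had 1699.8, 1542 and 1597 CPM in vehicle and 1494, 1464 and 1346 CPM with A8. The log2 fold change was -0.17 (SE 0.07, edgeR adjusted p 0.408). RPS26, which lies at the exit of the mRNA channel and is mutated in some patients with Diamond-Blackfan anaemia, had 147, 140.2 and 132 CPM in vehicle and 134, 109 and 114 CPM with A8. The groups overlapped by 1 A8 library that lay above the lowest vehicle library, with a log2 fold change of -0.23 (SE 0.08, edgeR adjusted p 0.324). RPL3, which reaches toward the site of peptide bond formation, had 1539, 1491 and 1290.0 CPM in vehicle and 1741, 1533 and 1613 CPM with A8. Its log2 fold change was 0.18 (SE 0.07) and the groups overlapped.

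Further members are given by role. Of the stalk that recruits translation factors, RPLP0 had a log2 fold change of 0.05, RPLP1 0.13, RPLP2 -0.01 and RPL12 0.17. RPL5 and RPL11, which bind 5S ribosomal RNA and, outside the ribosome, the p53 regulator MDM2, had 0.08 and 0.09. RPL10, which completes the large subunit at the end of its assembly, had 0.10, and RPL23A at the tunnel exit 0.03. In the small subunit, RPS6, the substrate of S6 kinase, had 0.09, RPS3 at the mRNA entry 0.02 and RPSA 0.09. RPS19, RPS10 and RPS14, genes tied to inherited or acquired anaemias, had 0.03, -0.02 and -0.06. RPS27A, which is made as a fusion with ubiquitin, had 0.05. RPL22, an RNA-binding protein of the large subunit, had 0.18 (SE 0.11), and RPL39L, a copy of RPL39, 0.24 (SE 0.18). In none of these did the A8 libraries stand clear of the vehicle libraries.

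**Figure D4:**
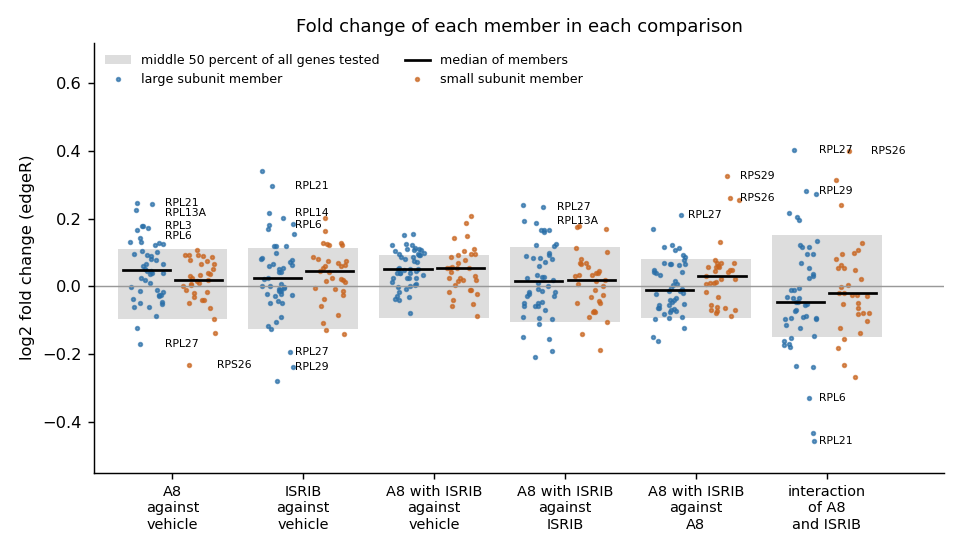
Log2 fold change (edgeR) of the 48 large (blue) and 33 small (orange) subunit genes in each of the 5 comparisons and in the interaction, with black bars for their medians, grey boxes for the middle 50% of all genes tested, and names for most members with an unadjusted p under 0.05. All medians lie between -0.05 and 0.05, and most members lie inside the grey boxes.

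ISRIB against vehicle, which shares the vehicle libraries with the comparison above, called 0 members and 0 genes in all (0%) in edgeR (lowest member adjusted p 0.473), and DESeq2 called 0 members (0.516% of all genes). At an unadjusted p under 0.05 stood 3 members higher (4.00% of all genes) and 2 lower (5.59%). The medians were 0.02 in the large and 0.05 in the small subunit. Without vehicle library 3 they were -0.08 and -0.05, and the number above 0 went from 50 to 21 of 81 (50.5% of all genes in the full fit). In 6 members the ISRIB libraries did not overlap the vehicle libraries: RPL4, RPL6, RPL14 and RPL21 higher (13.9% of all genes) and RPL27 and RPS26 lower (15.1% of all genes). RPL21 had 23.5 CPM in both ISRIB libraries and RPL6 624 and 620.2 CPM. RPL27 had 1466 and 1356 CPM, under the lowest vehicle library, and RPS26 129 and 125 CPM. RPL29, a small basic protein of the large subunit that mice can lack, had 1264, 1107 and 959 CPM in vehicle and 898 and 984 CPM with ISRIB. Its log2 fold change was -0.24 (SE 0.10, edgeR adjusted p 0.482), and the groups overlapped.

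A8 with ISRIB against vehicle, on the same vehicle libraries, called 0 members in edgeR (lowest adjusted p 0.688; 0.0192% of all genes were called) and 0 in DESeq2 (0.243%), and 0 had an unadjusted p under 0.05 in edgeR, against 7.70% of all genes. The medians were 0.05 in both subunits, and 65 of 81 members were above 0, against 51.1% of all genes. Without vehicle library 3 the number above 0 was 29, and without A8 with ISRIB library 3 it was 22, so that 1 library of either group decided the direction. RPL4 and RPS29, a zinc-binding small subunit protein, were the 2 members higher without overlap (5.79% of all genes). RPL4 had 2285, 2225 and 2123 CPM in vehicle and 2300.4, 2314 and 2545 CPM with A8 and ISRIB.

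The next comparisons took each compound in the presence of the other. A8 with ISRIB against ISRIB called 0 members in edgeR (lowest adjusted p 0.446; 0.0128% of all genes) and 0 in DESeq2 (0.639%), with 3 members higher at an unadjusted p under 0.05 (4.75% of all genes) and 0 lower. The medians were 0.01 and 0.02. In 7 members the libraries with both compounds lay above both ISRIB libraries (12.8% of all genes), and in 0 below (12.3%). Among these were RPL3, RPL13, RPL13A, RPL27, RPS14 and RPS26. RPL27 had 1613, 1591 and 1774 CPM with A8 and ISRIB, a log2 fold change of 0.23 (SE 0.08, edgeR adjusted p 0.446). RPL13A had 294 and 274 CPM with ISRIB and 304, 319 and 351 CPM with A8 and ISRIB, a log2 fold change of 0.19 (SE 0.09). On the CPM scale RPL13A thus lay higher in the A8 libraries both without and with ISRIB, in comparisons that share no library. Set against the median member of the same library, the groups without ISRIB overlapped. On that log2 scale RPL13A stood at -0.945, -0.99 and -0.815 in vehicle and -0.672, -0.792 and -0.908 with A8.

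A8 with ISRIB against A8 called 0 members in edgeR (lowest adjusted p 0.523; 0.180% of all genes) and 0 in DESeq2 (0.445%), with 4 members higher at an unadjusted p under 0.05 (2.73% of all genes) and 0 lower. The medians were -0.01 in the large and 0.03 in the small subunit. RPL27, RPS26 and RPS29 lay above all A8 libraries when ISRIB was added (5.09% of all genes). RPS29 had 63.3, 58.9 and 48.7 CPM with A8 and 66.3, 70.2 and 78.0 CPM with A8 and ISRIB, a log2 fold change of 0.33 (SE 0.10, edgeR adjusted p 0.548). RPS26 had 136, 136 and 156 CPM with A8 and ISRIB, just above the highest A8 library at 134 CPM (0.26, SE 0.08, adjusted p = 0.523 in edgeR). RPL27 had a log2 fold change of 0.21 (SE 0.07). In all 3 the levels with both compounds were close to those in vehicle cells or above them, with log2 fold changes against vehicle of 0.04 for RPL27, 0.03 for RPS26 and 0.19 for RPS29.

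**Figure D5:**
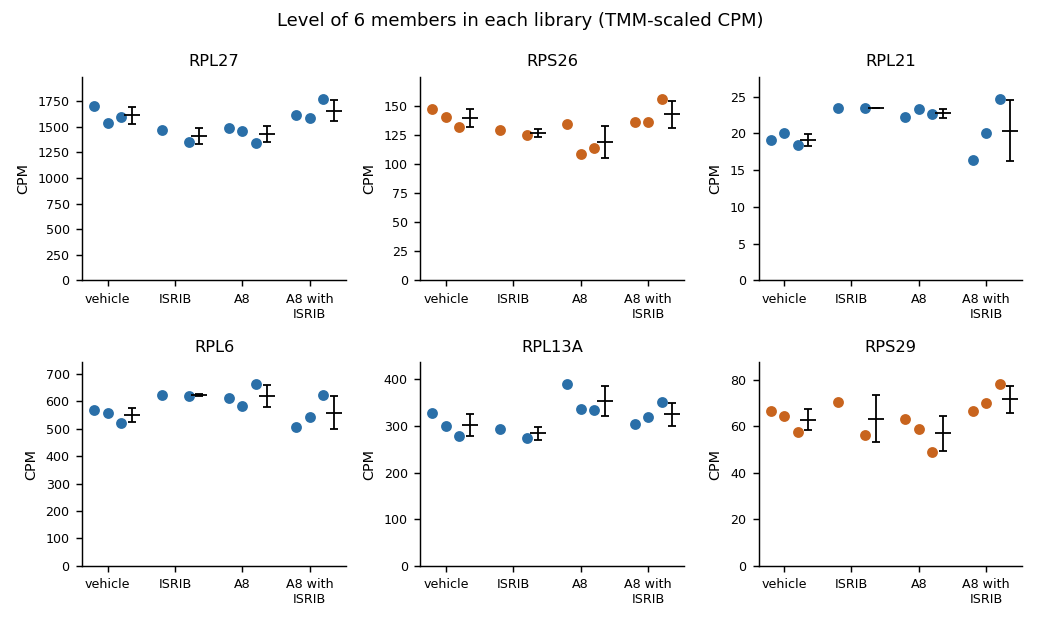
TMM-scaled CPM of RPL27, RPS26, RPL21, RPL6, RPL13A and RPS29 in each library of the 4 groups (points), with the group mean ± SD in black and axes from 0. RPL27 and RPS26 are lower with either compound alone than with neither or both, while RPL21 and RPL6 are higher with either compound alone, with log2 fold changes between -0.23 and 0.30.

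The interaction asks whether A8 acts differently with and without ISRIB, which for single members was the comparison with the smallest p-values. No member passed an adjusted p of 0.05 in edgeR (lowest 0.322; 0.0257% of all genes did), and 6 had an unadjusted p under 0.05 (7.41%; 8.48% of all genes). RPL27 had an interaction of 0.40 on the log2 scale (SE 0.10, 95% interval 0.19 to 0.62, unadjusted p = 0.000985, adjusted p = 0.322 in edgeR). DESeq2's Wald test called RPL27 and no other member, with an adjusted p of 0.0198, where 0.525% of all genes were called. RPL27 was therefore on different sides of the threshold in the 2 tests. RPS26 had an interaction of 0.40 (SE 0.12, adjusted p = 0.399 in edgeR and 0.122 in DESeq2).

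On the other side, RPL21 had an interaction of -0.46 (SE 0.17) and RPL6 of -0.33 (SE 0.11). Both lay higher with A8 alone and with ISRIB alone than in vehicle, and not with both. RPL21 had 16.37, 19.998 and 24.67 CPM and RPL6 507, 544 and 625 CPM with A8 and ISRIB, ranges that span the vehicle values. RPL29 was also among the 6, with 0.28 (SE 0.13). When each of the 11 libraries was left out in turn, RPL27, RPS26, RPL21 and RPL6 kept an unadjusted interaction p under 0.05 in all 11 fits (4 of 81 members; 2.16% of all genes did so), with RPL27 between 0.35 and 0.45 over all alternatives tried. The fits share most of their libraries, so this describes the weight of single libraries and is not independent support.

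Set against the median member of the same library, RPL27 kept its order. RPL27 varied less with the block than the median member did, and its spread among replicates was wider on this scale than in CPM in all 4 groups. On the log2 scale it stood 1.43, 1.38 and 1.70 above the median member in vehicle, 1.25 and 1.13 above it with ISRIB, 1.27, 1.33 and 1.10 with A8, and 1.59, 1.45 and 1.41 with both. Each library with 1 compound lay under each library with none or both. RPS26 stood at -2.10, -2.08 and -1.90 from the median member in vehicle, -2.26 and -2.32 with ISRIB, -2.21, -2.42 and -2.46 with A8, and -1.98, -2.10 and -2.09 with both, with the same separation. RPL21, where the groups overlapped on this scale, stood at -5.05, -4.89 and -4.74 in vehicle and -4.81, -4.64 and -4.79 with A8. RPL6 overlapped too, at -0.148, -0.094 and 0.084 in vehicle and -0.022, 0.0 and 0.079 with A8. This scale was chosen after the values were seen, so the separations carry no test.

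The A8 log2 fold changes without and with ISRIB come from 4 separate groups, so they could be compared across members. They had the same sign in 31 of 81 members (38.3%), against 50.3% of all genes tested, with a Spearman's rho of -0.37 across members and 0.05 across all genes. Members share their libraries and their block of deviations, so these are descriptions. The members' fold changes also went with the GC content of their transcripts, with a rho of -0.27 with A8 against vehicle and 0.39 with A8 and ISRIB against ISRIB over 80 members. Whether the start held a C followed by 4 pyrimidines made little difference with A8, with median log2 fold changes of 0.03 in the 46 members that hold it and 0.05 in the 18 that do not.

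Pairs of related copies kept their proportions in different degree. RPL36AL, a close relative of RPL36A, was counted at 2.44 to 3.15 times RPL36A in 10 libraries and at 5.95 times in ISRIB library b. RPL36A itself had the largest spread among replicates of members with at least 10 CPM, with a median within-group SD of 0.27 on the log2 scale, followed by RPL36AL (0.23) and RPS27 (0.23). The ISRIB libraries gave 29.97 and 17.1 CPM of RPL36A and 82.8 and 101.9 CPM of RPL36AL, opposite in direction. RPS27L, a copy of RPS27 known as a target of p53, was counted at 1.21 to 1.84 times RPS27. RPL39L stood at 0.33 to 0.55 times RPL39, a protein of the exit tunnel.

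Other genes of the pathway were read from lists chosen with earlier results of these data known, and none of their genes was called in edgeR in any of the 6 tests. A list of 6 genes of the family outside the rule, among them FAU, GNB2L1, RPL22L1, RPL26L1 and RPL7L1, had a median log2 fold change of 0.01 with A8, 3 of 6 above 0. The 19 other mRNAs of translation with a TOP start, 3 of which are also among these 6, had a median of 0.12 with A8, with 17 above 0 and 5 at an unadjusted p under 0.05, all higher. Of all genes tested, 51.8% were above 0 with A8, and 4.90% were higher and 5.34% lower at that p, which is the background for the counts of every list here. EIF4A2, a helicase of initiation, had 108, 104 and 96.3 CPM in vehicle and 129, 125 and 126 CPM with A8, which gave a log2 difference of 0.30 (SE 0.06, edgeR adjusted p 0.0859). PABPC1, the poly(A) binding protein, and EIF4B, a cofactor of that helicase, both had 0.23 (SE 0.06). Of the members themselves, 46 of the 64 with a RefSeq entry held a C followed by 4 pyrimidines at the start. Over all members the A8 medians were 0.05 in the large and 0.02 in the small subunit. The difference between the lists was not tested.

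Of 13 regulators of TOP mRNAs, 1 was higher and 0 lower with A8 at an unadjusted p under 0.05. EIF4EBP1, a repressor of cap-dependent initiation that mTORC1 controls, had 214, 197 and 191 CPM in vehicle and 262, 229.95 and 216 CPM with A8 (0.24, SE 0.07, adjusted p = 0.276 in edgeR), and 189, 189.6 and 214 CPM with A8 and ISRIB. Of 32 genes of ribosome assembly and ribosomal RNA synthesis, 11 were above 0 with A8 (median -0.05), 0 higher and 5 lower at an unadjusted p under 0.05 (5.34% of all genes were lower). Of 8 dedicated carriers, GRWD1, the carrier of RPL3, had 165, 159 and 146 CPM in vehicle and 130, 132 and 138 CPM with A8 (-0.23, SE 0.06, adjusted p = 0.214 in edgeR). The 76 mitochondrial ribosomal protein genes had a median of -0.05 with A8, with 20 above 0 (51.8% of all genes), 0 higher and 8 lower at an unadjusted p under 0.05. The 15 mitochondrially encoded transcripts had a median of 0.38, with all 15 above 0 and 9 higher at that p (4.90% of all genes). These 15 also moved together between replicates, with library medians from -0.22 to 0.34 around their group means, so they are not 15 separate results. In vehicle library 3 all 15 lay above the group mean (median 0.23). Their share of counts there, 11.2%, exceeded the 10.6% of A8 library 2.

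The results deposited by the authors cover the 3 comparisons with vehicle and list all 81 members. By the authors' deposited table, 0 members had an adjusted p under 0.05 in any of these comparisons. Of all genes there, 65 had one with A8, 8 with ISRIB and 8 with A8 and ISRIB. RPL13A with A8 was the only member with an unadjusted p under 0.05 by the authors' deposited table (0.0414). Shares of all genes are not given for these results. Log2 fold changes of members in the authors' deposited table differed by at most 0.0019 from those of edgeR.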

How the data were processed

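Whole-number counts per gene symbol were deposited by the authors for 11 libraries. The submitters' processing notes name GRCh37, DESeq and DESeq2, while an aligner or counter is not given in the sources used here. The authors' deposited results tables hold, per the file headers, base means (a signal), log2 fold changes with SE, a test statistic (a score) and p-values. The members and gene lists were chosen with earlier results of these data known. One edgeR 4.0.16 quasi-likelihood fit in R 4.3.3 (filterByExpr, TMM, no replicate block) over the 11 libraries gave log2 fold changes, SE (from the F statistic), 95% intervals and p-values, with Benjamini-Hochberg adjustment over 15591 genes and a threshold of 0.05. DESeq2 1.42.0 was an alternative. The fit was tested on simulated data. Replicates differed beyond sampling noise (chi-square per degree of freedom 7.55 to 38.3), so none was counted as a copy. Deviations used log2 CPM with a prior count of 2. Coding lengths, GC and processed copies came from GENCODE (GRCh38), and no coordinates were carried between builds. Named members were those fixed by role, the 3 highest and 3 lowest fold changes per subunit with A8, the 2 highest and 2 lowest in each other comparison, the 4 highest and 4 lowest levels and the 3 largest spreads. Others named by overlap or p-value were chosen after their values were seen. Intervals of counts and limits at 0 cover counting error only, and a count of 0 allows up to 0.0880 CPM in the shallowest library. Some members and list genes are counted but not reported by name here. Alternatives are given in the closing section.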

Additional observations from a re-analysis of the deposited data

How the results depend on the processing

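The count of members called by edgeR stayed at 0 in all 6 tests under DESeq2's size factors, both other filters on low counts and TMM factors without the members. It also stayed at 0 when 1 library was left out of a group of 3, in the tests that use that group. A fit of only the groups compared gave 0 in each comparison, and for the interaction that fit is the main one. The replicate block gave 0 in the comparisons that do not use ISRIB alone. The interaction could not be run with the block. DESeq2's Wald test called 1 member, RPL27 in the interaction. The median log2 fold changes kept their sign under every scaling and filter, and each scaling moved the median of all genes by less than 0.1. Leaving out 1 library reversed them in at least 1 fit of every comparison. For large and then small subunit members, the medians lay from -0.047 to 0.14 and from -0.075 to 0.087 for A8 against vehicle, from -0.076 to 0.11 and from -0.046 to 0.13 for ISRIB against vehicle, from -0.040 to 0.13 and from -0.038 to 0.13 for A8 with ISRIB against vehicle, from -0.066 to 0.084 and from -0.071 to 0.10 for A8 with ISRIB against ISRIB, from -0.081 to 0.057 and from -0.055 to 0.10 for A8 with ISRIB against A8, and from -0.14 to 0.062 and from -0.095 to 0.082 for the interaction. The lowest values against vehicle came without vehicle replicate 3, and the highest without vehicle replicate 1 or A8 with ISRIB replicate 1. A group left with 1 ISRIB library is assumed to vary like the others.

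The share of counts in members is higher over a smaller total by construction. With the 10 highest other genes left out it was 7.32% in vehicle, 7.36% with ISRIB, 7.52% with A8 and 7.46% with both. The largest distance between these group means exceeded the SD of the share of all counts with ISRIB (0.19, n = 2). It stayed under the SDs of the other groups. Without mitochondrially encoded genes, an alternative added after seeing the data, the share was 7.35%, 7.41%, 7.60% and 7.55% in the same order. Without the members that have a near-identical copy in the table it was 6.39% in vehicle, 6.36% with ISRIB, 6.43% with A8 and 6.39% with both. The planned total without symbols that begin with MT- was not run, since 0 rows carry one.

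Same-numbered replicates correlated between -0.13 and 0.14 in their deviations over all genes tested. With 3 replicates per group, these values cannot tell whether same-numbered replicates were handled together. With the replicate block on the 9 libraries without ISRIB alone, 15, 0 and 15 genes were called for A8 against vehicle, A8 with ISRIB against vehicle and A8 with ISRIB against A8, against 19, 3 and 25 without it, and the lowest adjusted p of a member was 0.573. No paired analysis was possible for the comparisons with ISRIB alone because its columns carry no sample number. Over 43 named members and 6 tests, 273 of 3311 values under an alternative changed sign, none of them called, and 1 passed the threshold.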
